A study of Mus musculus with 16 samples.

Results

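The genes described here are 36 genes of the endoplasmic reticulum (ER) that sense, fold, oxidise, import or dispose of secretory proteins. They were chosen by name, with earlier results of these data known. Every non-control probe whose gene name on the array was 1 of the 36 was taken. Each gene is represented by the probe with the highest mean log2 signal over all arrays. All 36 were found among 34832 gene names, all 36 belonged to the 25433 genes tested, and each was well above background on all 16 arrays. The study measured RNA of primary type II cells, the surfactant-secreting cells of the alveolus, isolated from the lungs of C57BL/6 mice. Cells kept in 85% O2 (hyperoxia) for 24 h were set against cells kept in 21% O2 (normoxia) for 24 h, and the same pair of oxygen levels was compared at 6 h. Each of the 4 groups had 4 one-colour arrays, 16 in all, and no genetic change or drug is given for any group. The labels do not say whether the 4 arrays of a group came from separate animals or cultures, so p-values measure only the spread between these samples.

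A level below is the log2 signal relative to the 75th percentile of its own array, and it compares arrays for 1 probe, not genes with each other. Differences are log2 fold changes ± SE with n = 4 arrays per group. A gene is said to have risen or fallen where limma's adjusted p was under 0.05. Arrays differed in brightness, with a 75th percentile of the processed signal between 556 and 801 at 24 h and between 899 and 1021 at 6 h, and had 53.7% to 69.0% of their probes well above background. One slide carried the 24 h arrays and a second slide the 6 h arrays, and within each slide hyperoxia filled the second row and normoxia the first. Time and slide therefore cannot be told apart, nor can oxygen and row. Of 17 type II cell markers, 15 were well above background on all 16 arrays, whereas Slc34a2, a phosphate transporter that defines these cells, was so on none. Their summed signal, in units of each array's 75th percentile, was 122 to 143 in hyperoxia and 136 to 147 in normoxia at 24 h, against 173 to 229 in hyperoxia and 171 to 204 in normoxia at 6 h. All 7 fibroblast and smooth muscle markers were detected on all arrays, with sums of 1453 to 1558 in hyperoxia and 1559 to 1793 in normoxia at 24 h, and of 862 to 1136 in hyperoxia and 914 to 1089 in normoxia at 6 h. In RNA of whole samples, fewer cells of a type and less RNA per cell cannot be told apart.

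Proteins bound for secretion, such as surfactant proteins, enter the ER through the Sec61 channel, fold with the help of chaperones such as BiP (Hspa5) and the lectins calnexin and calreticulin, and acquire disulfide bonds through protein disulfide isomerases that Ero1 oxidases recharge. Proteins that fail to fold are sent back to the cytosol and degraded, a route called ER-associated degradation (ERAD). Unfolded protein activates 3 sensors in the ER membrane, IRE1 (Ern1), PERK (Eif2ak3) and ATF6, of which IRE1 splices the mRNA of the transcription factor Xbp1, and this unfolded protein response raises transcription of chaperone and ERAD genes.

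After 24 h of hyperoxia most of the set was lower than in normoxia. Of the 36 genes 26 fell and 0 rose, where 12.8% of all tested genes fell and 15.5% rose. The median log2 fold change of the 36 was -0.41, beside 0.01 over all tested genes. Of the 36 fold changes 33 were below zero, which held for 49.3% of all tested genes. In 22 of the 36 every hyperoxia array lay below every normoxia array, which held for 15.3% of all tested genes, and for Eif2ak3 every hyperoxia array lay above every normoxia array, as it did for 17.9% of all genes. By class, 12 of 13 chaperones and folding factors fell (median -0.71), as did 4 of 6 disulfide enzymes (-0.55), all 3 translocon genes (-0.39), 2 of 4 sensors and transcription factors (-0.23) and 5 of 10 ERAD genes (-0.24). Array by array, the median deviation of the 36 genes from their own 16-array means was -0.40 to -0.25 in hyperoxia and 0.07 to 0.25 in normoxia at 24 h, and -0.04 to 0.10 in hyperoxia and 0.05 to 0.16 in normoxia at 6 h. At 24 h the summed signals of type II markers overlapped between the oxygen groups. Those of fibroblast markers were lower in hyperoxia by a narrow margin, at most 1558 against at least 1559 in normoxia. Gene by gene, 5 of 16 tested type II markers fell and 2 rose, and 0 of 7 fibroblast markers were called. The part of these cell types in the differences was not tested.

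**Figure D1:**
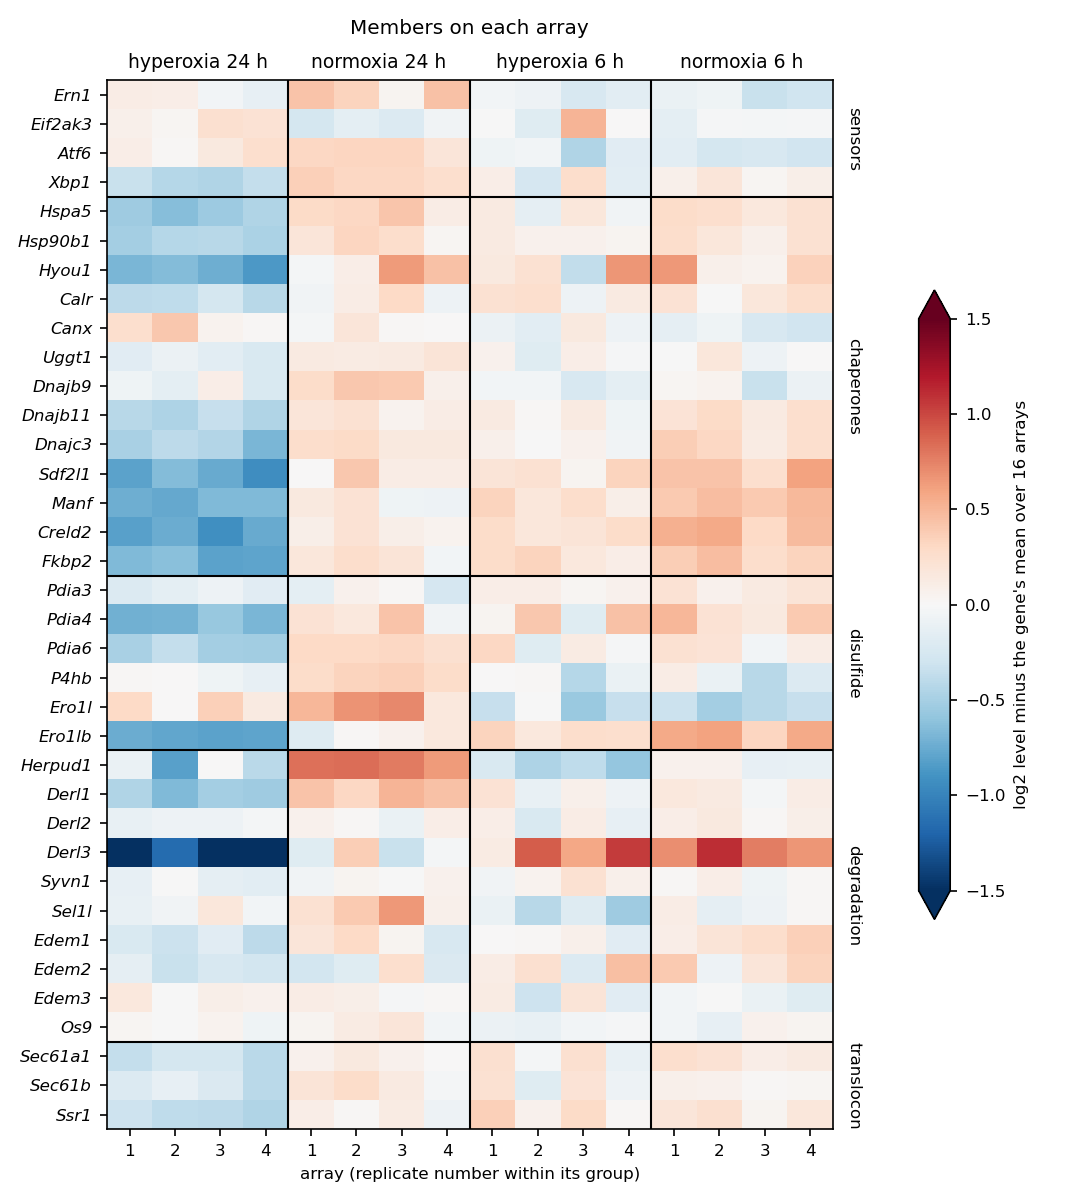
Heat map of the 36 genes (rows, by class) on the 16 arrays (columns, by group and replicate), with colour for the log2 level minus the gene's own mean over 16 arrays. The 4 hyperoxia 24 h columns are blue for most chaperones, disulfide enzymes and translocon genes, with medians of -0.40 to -0.25 over the 36 genes.

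At 6 h no member rose or fell, where limma called 0.236% of all tested genes higher and 0.0904% lower. The median of the 36 was -0.09, beside 0.01 over all genes, and 27 of 36 fold changes were below zero, which held for 46.2% of all genes. At an unadjusted limma p under 0.05, 10 of the 36 (27.8%) were lower and 0 higher. Of all 25433 tested genes 852 were lower and 1026 higher at that threshold, 7.38% in all. The 10 were not called after adjustment. Those 10 were Hspa5, Dnajb11, Dnajc3, Sdf2l1, Manf, Creld2, Ero1lb, Herpud1, Sel1l and Edem1. In 5 of the 36 (Dnajc3, Manf, Creld2, Herpud1 and Edem1) all hyperoxia arrays lay below all normoxia arrays, which is 13.9% of the set, beside 2% of all tested genes, and in 0 all hyperoxia arrays lay above, beside 2.31%. The most negative 6 h value was that of Herpud1, -0.38 ± 0.14 (limma adjusted p = 0.492).

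The hyperoxia effect at 24 h minus that at 6 h was tested in the same model. This difference was below zero for 17 of the 36 genes and above zero for 0, where 5.63% of all tested genes were called below zero and 6.63% above, and its median was -0.40 beside -0.01 over all genes. The 17 comprised 9 chaperones and folding factors, 3 disulfide enzymes, 3 ERAD genes, Xbp1 and Ssr1. Derl3 had -1.24 ± 0.27 (limma adjusted p = 0.00805), Hyou1 -0.91 ± 0.28 and Derl1 -0.89 ± 0.11. With normexp background correction the Derl3 value was -0.55 and those of Hyou1 (-0.77) and Derl1 (-0.91) were more negative than it. Hyou1 was close to the threshold, with an adjusted p of 0.0477, and of 0.0650 once the replicate number was a block over all arrays, and it passed in 9 of 26 alternative settings. With that block Ern1 was also called (-0.37, adjusted p = 0.0370), and with a block within each time Dnajb9 (0.0402) and P4hb (0.0204) were.

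**Figure D2:**
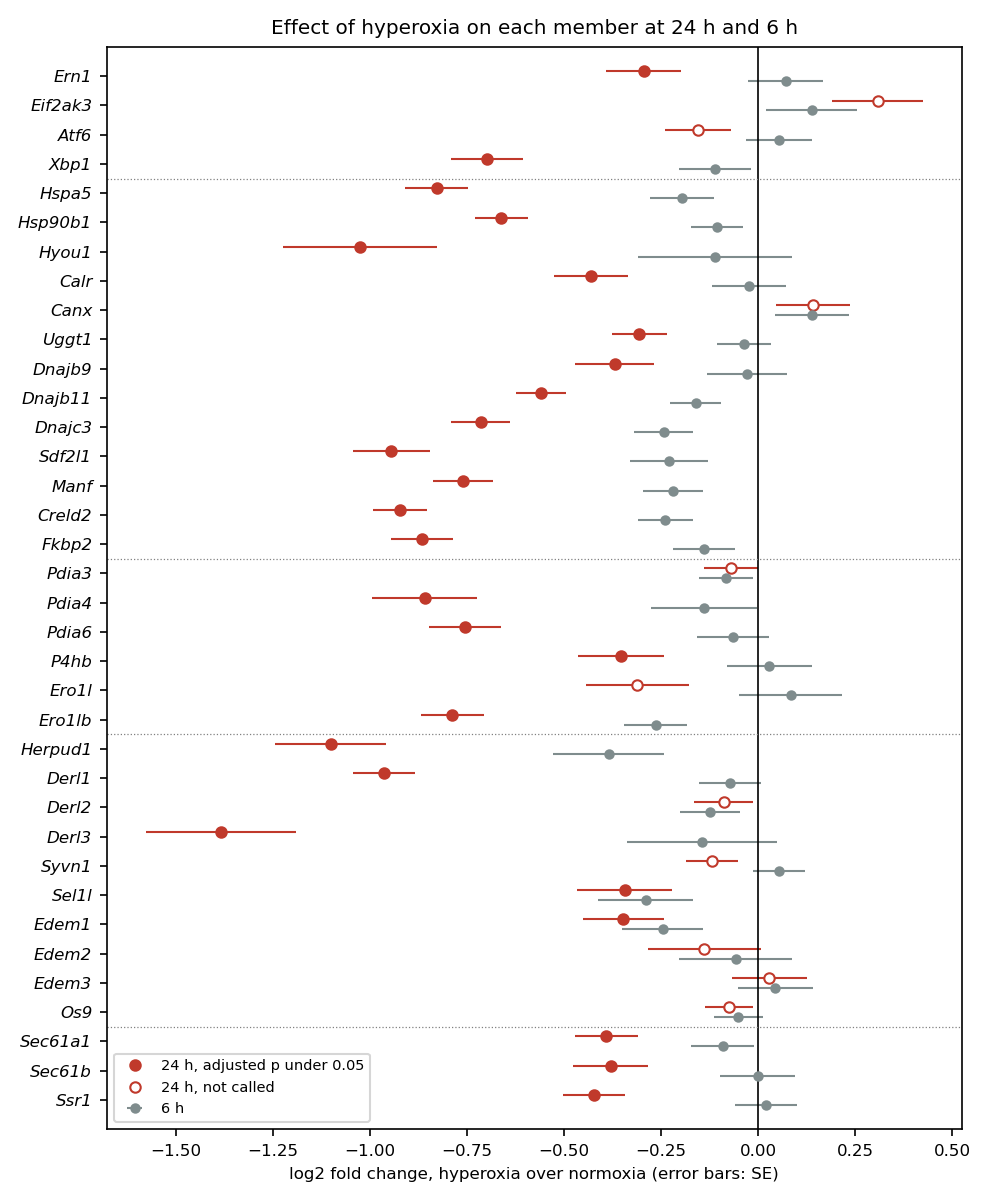
Log2 fold change of hyperoxia over normoxia for each gene, with SE bars, at 24 h (red, filled where the limma adjusted p was under 0.05, open where not) and at 6 h (grey), with dotted lines between classes. Filled red points lie left of zero for 26 genes, and the grey points stay between -0.38 and 0.14.

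Several of these genes carry the ER stress response element in their promoters, so the sequences are shown. This element is CCAAT and CCACG with 9 bases of any kind between them, of which NF-Y binds the first part and ATF6 or XBP1 the second. Promoter windows of 250 bases before to 50 after the start, from RefSeq on GRCm38.p6, were at hand for 31 of the 36 genes and not for Atf6, Hyou1, Manf, Derl1 and Sec61a1. Searched on both strands, the element was found in 10 of the 31 (32.3%), and in 37 of 27025 genes with a window (0.137%). The matches are given 5′ to 3′ on the strand that reads CCAAT first, with the fixed bases in capitals:
Hspa5 (chr2:34772025-34772043, plus strand): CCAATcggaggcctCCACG
Hsp90b1, nearer the start (chr10:86705533-86705551, plus strand): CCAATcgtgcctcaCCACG
Hsp90b1, farther from the start (chr10:86705638-86705656, minus strand): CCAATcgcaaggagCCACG
Calr (chr8:84847075-84847093, plus strand): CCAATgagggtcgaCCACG
Canx (chr11:50325800-50325818, minus strand): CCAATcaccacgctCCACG
Creld2 (chr15:88819520-88819538, minus strand): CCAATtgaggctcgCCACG
Dnajc3 (chr14:118937827-118937845, plus strand): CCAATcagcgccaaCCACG
Pdia6 (chr12:17266491-17266509, plus strand): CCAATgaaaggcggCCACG
Ero1lb (chr13:12565682-12565700, minus strand): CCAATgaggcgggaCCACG
Derl3 (chr10:75893242-75893260, minus strand): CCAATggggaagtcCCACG
Syvn1 (chr19:6046532-6046550, plus strand): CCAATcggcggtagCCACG

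In Hspa5 the element ends 47 bases before the start, upstream of a TATA-like run, as the 150 bases before the start show (chr2:34771940-34772089, plus strand, element in capitals):
Hspa5 promoter: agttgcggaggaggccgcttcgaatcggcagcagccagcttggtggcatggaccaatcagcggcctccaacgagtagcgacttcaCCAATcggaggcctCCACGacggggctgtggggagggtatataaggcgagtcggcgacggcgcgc

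A second form of the element is ATTGG and CCACG with 1 base of any kind between them. It was found in Herpud1, before the start, and in Dnajb11, after the start. It was thus in 6.45% of the 31, beside 0.0444% of all genes with a window. In Herpud1 (chr8:94386377-94386387, plus strand) it reads:
Herpud1: ATTGGgCCACG
The short core CCACG, which lies within both forms, was in 26 of 31 windows (83.9%) beside 35.5% of all genes. The XBP1 site TGACGTGG, which contains the core on its other strand, and the ATF4 element TGATGNAAT were in 0 of the 31 windows, beside 0.714% and 1.08% of all genes. A match is a description of these letters and not a bound site or a cause. At 24 h, 12.8% of all tested genes fell and 15.5% rose. Of the 10 members with the long element 8 fell (median -0.73), as did 14 of the 21 with a window but without it (median -0.35). The members with the element that were not called were Canx and Syvn1, with 0.14 and -0.12. Of the 27 other genes with the element 13 were tested, of which 3 fell and 1 rose, with a median of 0.02. Among those that fell was Alg12 (-0.34 ± 0.12), an N-glycan mannosyltransferase whose window holds the same 19 bases as that of Creld2.

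Of the sensors and transcription factors 2 fell and 2 did not pass. Xbp1, the transcription factor downstream of IRE1, had levels of 5.35, 5.26, 5.24 and 5.33 in hyperoxia at 24 h, against 6.04, 6.00, 5.99 and 5.94 in normoxia at 24 h. At 6 h it had 5.78, 5.44, 5.95 and 5.53 in hyperoxia, against 5.77, 5.87, 5.72 and 5.78 in normoxia. The groups were well apart at 24 h, with a log2 fold change of -0.70 ± 0.09 (limma adjusted p = 4.73e-05), and overlapped at 6 h. Whether the Xbp1 probe separates spliced from unspliced mRNA was not examined.

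Ern1, which encodes IRE1, had levels of 0.87, 0.86, 0.72 and 0.63 in hyperoxia and 1.18, 1.08, 0.80 and 1.19 in normoxia at 24 h, and of 0.71, 0.68, 0.52 and 0.59 in hyperoxia and 0.65, 0.69, 0.42 and 0.46 in normoxia at 6 h. The groups overlapped at both times, at 24 h through normoxia replicate 3. Its 24 h fold change of -0.29 ± 0.10 had an adjusted p of 0.0341, which ran from 0.00541 to 0.0995 over 27 alternative settings and missed the threshold in some, and its fainter second probe gave -0.26 (adjusted p = 0.0868).

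Eif2ak3, which encodes PERK, was the member with the highest fold change. Its levels were 1.93, 1.88, 2.08 and 2.06 in hyperoxia at 24 h, all above the 1.58, 1.70, 1.65 and 1.80 in normoxia at 24 h. At 6 h they were 1.84, 1.66, 2.35 and 1.85 in hyperoxia, with replicate 3 high, against 1.69, 1.83, 1.81 and 1.82 in normoxia. The 24 h fold change of 0.31 ± 0.12 did not pass (limma adjusted p = 0.0632). It passed with the replicate number as a block over all arrays (0.0485), when hyperoxia 6 h replicate 3 was left out of the shared spread (0.00417), and in 6 further settings. Atf6, the membrane-bound transcription factor that is cut in the Golgi, averaged 0.51 ± 0.09 in hyperoxia and 0.66 ± 0.07 in normoxia at 24 h (SD), a fold change of -0.16 ± 0.09 (adjusted p = 0.203).

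Of the chaperones and folding factors all but Canx fell. Hspa5, the ER's HSP70 chaperone, had levels of 6.34, 6.23, 6.33 and 6.43 in hyperoxia at 24 h, against 7.17, 7.19, 7.29 and 6.99 in normoxia. At 6 h its levels were 7.02, 6.74, 7.05 and 6.83 in hyperoxia and 7.15, 7.13, 7.04 and 7.10 in normoxia. The 24 h groups did not overlap and the change was -0.83 ± 0.08 (limma adjusted p = 2.97e-06), while at 6 h hyperoxia replicate 3 reached into the normoxia range.

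Creld2, a secreted ER protein induced by ER stress, had the lowest adjusted p of the set. Its levels were 3.98, 4.06, 3.87 and 4.05 in hyperoxia and 4.89, 5.02, 4.89 and 4.85 in normoxia at 24 h, a change of -0.92 ± 0.07 (limma adjusted p = 2.11e-07). At 6 h they were 5.07, 4.97, 4.99 and 5.08 in hyperoxia and 5.33, 5.37, 5.09 and 5.27 in normoxia. The groups did not overlap at either time, but the 6 h difference of -0.24 ± 0.07 did not pass (adjusted p = 0.290).

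Sdf2l1, a partner of BiP's co-chaperone Dnajb11, had 0.78, 0.93, 0.82 and 0.65 in hyperoxia and 1.59, 1.98, 1.70 and 1.69 in normoxia at 24 h. At 6 h it had 1.77, 1.81, 1.62 and 1.92 in hyperoxia and 2.01, 2.00, 1.84 and 2.18 in normoxia. The groups were apart at 24 h and overlapped at 6 h, and the 24 h change was -0.94 ± 0.10 (adjusted p = 6.16e-06). Hyou1, the large HSP70-related nucleotide exchange factor of BiP, had -1.52, -1.48, -1.56 and -1.69 in hyperoxia and -0.85, -0.72, -0.19 and -0.39 in normoxia at 24 h, a change of -1.02 ± 0.20 (adjusted p = 0.00125). At 6 h it had -0.68, -0.60, -1.19 and -0.16 in hyperoxia and -0.17, -0.75, -0.78 and -0.49 in normoxia, so its hyperoxia arrays were close together at 24 h and spread out at 6 h.

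The other members of this class that fell at 24 h did so by -0.87 to -0.31. Fkbp2, a prolyl isomerase of the ER, changed by -0.87 ± 0.08, and Manf, a secreted protein that regulates BiP, by -0.76 ± 0.08. Hsp90b1, the ER's HSP90 called GRP94, had -0.66 ± 0.07. The DnaJ co-chaperones that deliver clients to BiP ran from Dnajc3 (-0.71 ± 0.08) through Dnajb11 (-0.56 ± 0.07) to Dnajb9 (-0.37 ± 0.10). In the glycoprotein folding cycle, Calr fell (-0.43 ± 0.10), as did the glucosyltransferase Uggt1 (-0.31 ± 0.07), which tags unfolded glycoproteins for another round. Canx, the membrane-bound lectin of the same cycle, averaged 5.43 ± 0.18 in hyperoxia and 5.29 ± 0.10 in normoxia at 24 h, and its change of 0.14 ± 0.09 did not pass (adjusted p = 0.306).

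**Figure D3:**
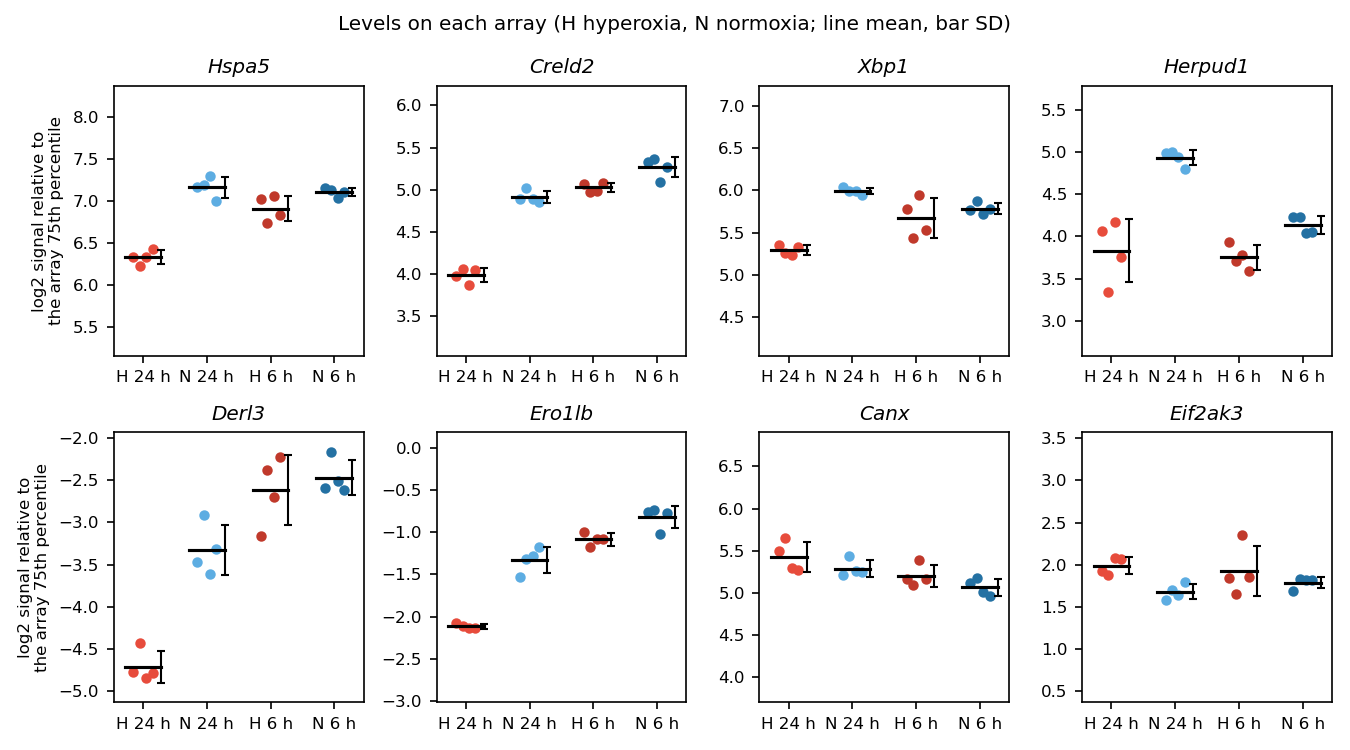
Levels (log2 signal relative to the array's 75th percentile) of 8 genes on each array, with a line at the group mean and a bar for its SD, H for hyperoxia and N for normoxia. Every panel spans the same log2 range and no axis starts at 0. At 24 h the hyperoxia points of Hspa5, Creld2, Xbp1, Herpud1, Derl3 and Ero1lb lie below those of normoxia, those of Canx overlap, and those of Eif2ak3 lie above.

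Of the 4 disulfide isomerases 3 fell and Pdia3 did not pass. Pdia4 had levels of 1.12, 1.13, 1.27 and 1.15 in hyperoxia and 2.06, 1.99, 2.26 and 1.79 in normoxia at 24 h, and 1.88, 2.24, 1.65 and 2.27 in hyperoxia and 2.34, 2.06, 1.98 and 2.23 in normoxia at 6 h. The groups were apart at 24 h and overlapped at 6 h, and the 24 h change was -0.86 ± 0.14 (limma adjusted p = 0.000238). Pdia6, which also acts on the IRE1 sensor, had 6.78, 6.90, 6.75 and 6.74 in hyperoxia and 7.56, 7.56, 7.57 and 7.50 in normoxia at 24 h, and 7.58, 7.08, 7.39 and 7.25 in hyperoxia and 7.49, 7.47, 7.22 and 7.38 in normoxia at 6 h. It was likewise apart at 24 h alone, its change was -0.75 ± 0.09 (adjusted p = 2.71e-05) and 2 further probes gave -0.80 and -0.54. P4hb, the founding isomerase PDI, had -0.35 ± 0.11 (adjusted p = 0.0257, 0.00204 to 0.0666 over the alternative settings). Pdia3, which works on glycoproteins with calnexin and calreticulin, averaged 4.46 ± 0.05 in hyperoxia and 4.53 ± 0.15 in normoxia (SD), a change of -0.07 ± 0.07 that did not pass (adjusted p = 0.502).

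Both Ero1 oxidases feed oxidising equivalents to PDI. Ero1lb (Ero1β) had -2.08, -2.11, -2.14 and -2.13 in hyperoxia and -1.53, -1.32, -1.28 and -1.18 in normoxia at 24 h, a change of -0.79 ± 0.08 (limma adjusted p = 4.76e-06). At 6 h it had -1.0, -1.18, -1.08 and -1.08 in hyperoxia and -0.76, -0.73, -1.02 and -0.77 in normoxia, with normoxia replicate 3 the array that overlapped. Ero1l (Ero1α) averaged 0.54 ± 0.16 in hyperoxia and 0.86 ± 0.25 in normoxia at 24 h, and its change of -0.31 ± 0.13 did not pass (adjusted p = 0.0970).

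The ERAD class held Derl3 and Herpud1, with log2 fold changes beyond -1 at 24 h, beside members near zero. Derl3, a derlin of the retrotranslocation machinery, had -4.78, -4.43, -4.84 and -4.79 in hyperoxia and -3.47, -2.92, -3.61 and -3.31 in normoxia at 24 h. At 6 h it had -3.16, -2.38, -2.70 and -2.23 in hyperoxia and -2.59, -2.17, -2.51 and -2.62 in normoxia. The groups were apart at 24 h and overlapped at 6 h. It fell 2.61-fold at 24 h (-1.38 ± 0.19, limma adjusted p = 7.97e-05), and with normexp background correction the log2 fold change was -0.64, less negative than that of Herpud1 in the same setting (-1.04). Of 6 markers of plasma cells on the array, a secretory cell type known for a large ER, Igj and Tnfrsf17 were well above background on no array and 2, Sdc1 and Prdm1, on all 16. These 2 did not pass at 24 h (-0.18 ± 0.08 for Sdc1 and -0.05 ± 0.15 for Prdm1) but were lower at 24 h than at 6 h in hyperoxia (-0.69 ± 0.08 and -0.62 ± 0.15), where Derl3 was lower too (-2.09). In normoxia their changes over time were -0.42 and -0.35, with 1 of the 2 called lower, and Derl3 had -0.85. Of all tested genes 27.4% in hyperoxia and 23.5% in normoxia were called lower at 24 h than at 6 h. Sdc1 is also expressed by epithelial cells. The summed signal of the list was 16.2 to 18.4 in hyperoxia and 17.8 to 21.1 in normoxia at 24 h, against 26.7 to 31.3 in hyperoxia and 24.4 to 29.2 in normoxia at 6 h, and the part of such cells in the Derl3 values was not tested.

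Herpud1, a membrane partner of the ubiquitin ligase Hrd1, had 4.06, 3.34, 4.17 and 3.76 in hyperoxia and 4.99, 5.0, 4.94 and 4.80 in normoxia at 24 h. At 6 h it had 3.94, 3.70, 3.78 and 3.59 in hyperoxia and 4.23, 4.23, 4.04 and 4.05 in normoxia. The groups did not overlap at either time, and the 24 h change was -1.10 ± 0.14 (limma adjusted p = 4.17e-05). Derl1 had 3.19, 2.98, 3.13 and 3.11 in hyperoxia and 4.07, 3.96, 4.16 and 4.09 in normoxia at 24 h, and 3.86, 3.53, 3.72 and 3.56 in hyperoxia and 3.80, 3.78, 3.62 and 3.76 in normoxia at 6 h. It was apart at 24 h and overlapped at 6 h. It changed by -0.96 ± 0.08 (adjusted p = 4.91e-07), and by -0.69 on its second probe. The third derlin, Derl2, had -0.09 ± 0.08 (adjusted p = 0.432), and its other 2 probes gave -0.0033 and -0.0015.

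The Hrd1 ligase itself, Syvn1, had levels of 4.74, 4.86, 4.73 and 4.71 in hyperoxia and 4.81, 4.90, 4.86 and 4.93 in normoxia at 24 h, and of 4.81, 4.91, 5.09 and 4.93 in hyperoxia and 4.88, 4.97, 4.80 and 4.89 in normoxia at 6 h. These overlapped at both times, and the 24 h change of -0.12 ± 0.07 did not pass (adjusted p = 0.216). Its adaptor Sel1l had -0.34 ± 0.12 with an adjusted p of 0.0498, which lay between 0.0170 and 0.153 over 27 alternatives and passed in 10 of them. The mannosidase-like protein Edem1, which marks glycoproteins for disposal, had -0.35 ± 0.10 (0.0215, and 0.00207 to 0.0710 over the alternatives). Its relatives Edem2 (-0.14 ± 0.15) and Edem3 (0.03 ± 0.10) and the lectin Os9 (-0.08 ± 0.06) did not pass.

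All 3 translocon genes fell at 24 h. Sec61a1, the pore subunit, had 5.96, 6.05, 6.06 and 5.92 in hyperoxia and 6.38, 6.46, 6.38 and 6.33 in normoxia at 24 h (-0.39 ± 0.08, limma adjusted p = 0.00206). Sec61b, a small subunit, had 6.66, 6.74, 6.65 and 6.47 in hyperoxia and 7.05, 7.14, 7.0 and 6.84 in normoxia (-0.38 ± 0.10, adjusted p = 0.00826). Ssr1, a subunit of the translocon-associated protein complex, had 4.99, 4.91, 4.91 and 4.85 in hyperoxia and 5.40, 5.31, 5.41 and 5.22 in normoxia (-0.42 ± 0.08, adjusted p = 0.00105). For none of the 3 did the 24 h groups overlap. At 6 h Sec61a1 had 6.56, 6.29, 6.56 and 6.21 in hyperoxia and 6.57, 6.54, 6.42 and 6.45 in normoxia. Sec61b had 7.10, 6.69, 7.07 and 6.79 in hyperoxia and 6.94, 6.93, 6.89 and 6.90 in normoxia. Ssr1 had 5.65, 5.36, 5.58 and 5.32 in hyperoxia and 5.47, 5.54, 5.34 and 5.47 in normoxia. These 6 h groups overlapped for all 3 genes, and the hyperoxia arrays were the more spread. The other probes of Sec61b gave -0.39 and -0.32 at 24 h, while those of Ssr1 differed in size, with -1.16 and -0.56.

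Comparing 24 h with 6 h within each oxygen level uses the same arrays again, so these comparisons are not independent of those above, and each holds a slide difference. In hyperoxia, 23 of the 36 genes were lower at 24 h than at 6 h and 2 were higher, where 27.4% and 25% of all tested genes were lower and higher, with a median of -0.39 beside -0.02 over all genes. The 2 that rose were Ero1l (0.51 ± 0.13) and Atf6 (0.31 ± 0.09), and leaving out hyperoxia 6 h replicate 3 raised this count to 5. In normoxia, 7 genes were lower at 24 h and 8 higher, where 23.5% and 20.6% of all tested genes were lower and higher, with a median of -0.00 beside -0.02. Of all called genes, 47.7% were higher at 24 h in hyperoxia and 46.7% in normoxia, but 62.9% in hyperoxia and 70.0% in normoxia with normexp background correction, which moved the median of all genes in normoxia to 0.10.

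Over time in normoxia calls went both ways among the chaperones, the disulfide enzymes and the ERAD genes, while 2 sensors rose and 0 fell and no translocon gene was called. Those that rose were Ero1l (0.91 ± 0.13), Herpud1 (0.80 ± 0.14), Atf6 (0.52 ± 0.09), Ern1 (0.51 ± 0.10), P4hb (0.47 ± 0.11), Dnajb9 (0.38 ± 0.10), Sel1l (0.35 ± 0.12) and Derl1 (0.33 ± 0.08). The second Dnajb9 probe was called the other way, at -0.29, so the direction of that gene over time rests on the probe. Those that fell were Derl3 (-0.85 ± 0.19), Ero1lb (-0.51 ± 0.08), Manf (-0.38 ± 0.08), Creld2 (-0.35 ± 0.07), Sdf2l1 (-0.27 ± 0.10), Pdia3 (-0.23 ± 0.07) and Fkbp2 (-0.21 ± 0.08). Of these calls, Fkbp2 passed in 12 of 26 alternative settings, Sdf2l1 in 15 and Sel1l in 17. P4hb missed the threshold with quantile normalization and with the authors' deposited table (0.29), Pdia3 with the compared groups only, and Derl3 was still called with normexp but at -0.34. Quantile normalization called 12 genes lower in normoxia in place of 7.

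Beside these 36, 8 lists of related genes were examined, each against the 15.5% of all tested genes that rose and the 12.8% that fell at 24 h. No gene of these lists was called at 6 h. Of 37 further ER folding and disulfide genes 16 fell and 2 rose (median -0.25). The most changed were the prolyl isomerase Fkbp11 (-1.13 ± 0.08), Serp1 (-0.73 ± 0.09), a stress-associated protein of the translocon, and the calcium-binding protein Rcn1 (-0.67 ± 0.11). Of 40 translocation, signal peptide and N-glycan genes 18 fell and 1 rose (median -0.22), among them Srprb (-0.61 ± 0.14), a subunit of the signal recognition particle receptor, and the translocating-chain proteins Tram2 (-0.57 ± 0.13) and Tram1 (-0.57 ± 0.09). Of 32 ER to Golgi traffic genes 15 fell and 1 rose (median -0.21), with Sec16b (-0.78 ± 0.14) of the ER exit sites, the cargo lectin Lman1 (-0.74 ± 0.09) and the large-cargo receptor Mia3 (-0.53 ± 0.07).

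Of 31 further ERAD genes 10 rose and 4 fell (median 0.03), with Tmub1 (0.71 ± 0.13) and Ufd1l (0.39 ± 0.08), a partner of the p97 ATPase, higher and the rhomboid-like protease Rhbdd1 (-0.55 ± 0.12) lower. Of 22 cytosolic heat shock genes 5 rose and 6 fell (median -0.01), and the inducible HSP70 gene Hspa1a had 1.33 ± 0.10, followed by Dnajb4 (0.68 ± 0.08) and Hspa4l (0.58 ± 0.11). Of 15 mitochondrial chaperones and proteases 7 fell and 3 rose (median -0.24), led by the protease Lonp1 (-0.85 ± 0.10), the protease Htra2 (-0.48 ± 0.07) and the chaperonin Hspd1 (-0.44 ± 0.08). Of 21 other ER stress regulators 3 fell and 2 rose (median -0.02), and the most changed were the apoptosis gene Bax (1.44 ± 0.20), Mbtps1 (-0.59 ± 0.09), the protease that cuts ATF6, and the transcription factor Nfe2l1 (-0.50 ± 0.11).

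The last list holds the PERK arm and integrated stress response. At 24 h 13 of 22 fell in hyperoxia relative to normoxia and 2 rose (median -0.39). The most changed were Trib3, a pseudokinase induced by ATF4 and CHOP, at -1.66 ± 0.25, the serine synthesis enzyme Psat1 at -1.17 ± 0.16 and Chac1, which degrades glutathione, at -0.98 ± 0.29. In hyperoxia 15 of the 22 were higher at 24 h than at 6 h and 1 was lower (median 0.52), and in normoxia 18 were higher and 1 lower (median 0.92). Of all tested genes 25% were higher and 27.4% lower in hyperoxia, and 20.6% higher and 23.5% lower in normoxia. Both comparisons over time hold the slide difference. Trib3 averaged 4.43 ± 0.67 in hyperoxia and 6.09 ± 0.09 in normoxia at 24 h (SD), so the spread was wider in hyperoxia.

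**Figure D4:**
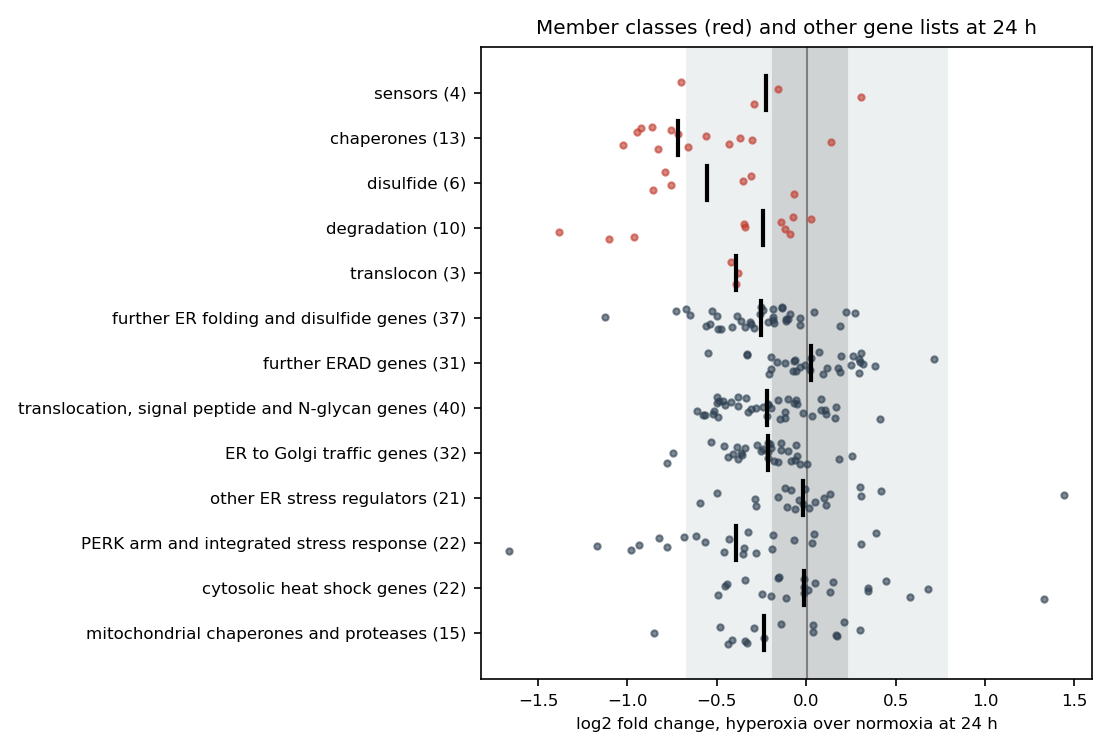
Log2 fold change of hyperoxia over normoxia at 24 h for each gene of the 5 member classes (red) and of the 8 related lists (dark), with the number of genes in brackets and a black line at the median. The grey bands hold the 25th to 75th (-0.19 to 0.23) and the 5th to 95th percentile (-0.67 to 0.79) of all tested genes, and the chaperone median of -0.71 lies left of both.

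Of the type II cell markers 0 of 16 tested were called at 6 h. At 24 h 5 of the 16 fell and 2 rose, where 12.8% of all tested genes fell and 15.5% rose. The lamellar body protein Lamp3 had -1.03 ± 0.08 and surfactant protein B (Sftpb) -0.95 ± 0.25, whereas the lamellar body lipid transporter Abca3 had 0.68 ± 0.10. Of the 7 fibroblast and smooth muscle markers 0 were called at 24 h, and of 8 macrophage markers 1 rose. The part of cell composition in the lower levels of the ER genes was not tested.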

How the data were processed

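The 36 genes, their classes and the related lists were chosen with earlier results of these data known. For each array the authors deposited the output of Agilent Feature Extraction 10.7.3.1. Its processed signal is, per the file headers, an intensity after background subtraction and detrending, with no normalization between arrays. A series table that the authors deposited holds log2 values with a median of 7.19 on every array, how it was normalized being not given in the sources used here, and it served as an alternative only. Mean and background intensities, per the file headers, were used in the normexp alternative (offset 50).

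Control spots were left out (59305 of 62976 spots remained), as were the 106 to 200 outlier spots per array where another spot of the probe remained, and no spot was saturated. Spots of a probe were averaged (55681 probes). From the log2 signal the 75th percentile of the array was subtracted. Genes were tested where the brightest probe passed the well-above-background mark on 3 or more of the 4 arrays in any group. In R 4.3.3, limma 3.58.1 fitted 1 mean per group over 16 arrays (12 residual and 2.23 prior degrees of freedom), with empirical Bayes moderation, two-sided tests and Benjamini-Hochberg adjustment over 25433 genes. The number of arrays limits the precision. On simulated data with 25433 genes for the 24 h comparison, the fit recovered 47% of genes shifted by 0.5 and 76% of those shifted by 1 (log2), with 8.89% of calls false. Far fewer genes were shifted there than were called in the data at 24 h (3950 higher and 3254 lower). The simulated noise was also independent between arrays, so these rates need not hold for the data.

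Values of every array are given, in each class, for the 3 members with the largest absolute change at 24 h and the brightest one. Of each list up to 3 called genes with the largest absolute change at 24 h are named. The marker genes and Alg12 were chosen after their values were seen. Same-numbered hyperoxia and normoxia arrays, which share a slide column, correlated in their residuals with r between 0.245 and 0.344 at 24 h and between 0.0866 and 0.354 at 6 h, so the number pairs arrays at 24 h by the limit of 0.1, and it was used as a block in alternatives. Promoter windows and gene positions come from RefSeq, GRCm38.p6.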

Additional observations from a re-analysis of the deposited data

Results flagged for a closer look

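Of 144 sets of 4 arrays (36 genes in 4 groups), 6 held an array far from the other 3, where chance gives about 1 in 20. Eif2ak3 was low on normoxia 6 h replicate 1 (1.69, the others 1.81 to 1.83), Atf6 low on normoxia 24 h replicate 4 (0.55, the others 0.69 to 0.70) and Ero1lb low on normoxia 6 h replicate 3 (-1.02, the others -0.77 to -0.73). Calr was high on hyperoxia 24 h replicate 3 (5.29, the others 5.14 to 5.16), Derl3 high on hyperoxia 24 h replicate 2 (-4.43, the others -4.84 to -4.78) and Uggt1 high on normoxia 24 h replicate 4 (4.85, the others 4.78 to 4.79).

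The effect of hyperoxia differed between 24 h and 6 h, by limma's test of that difference, for 17 genes, and all 17 differences were below zero. They were -1.24 for Derl3, -0.91 for Hyou1, -0.89 for Derl1, -0.73 for Fkbp2, -0.72 for Pdia4, -0.72 for Herpud1, -0.71 for Sdf2l1, -0.69 for Pdia6, -0.68 for Creld2, -0.63 for Hspa5, -0.59 for Xbp1, -0.55 for Hsp90b1, -0.54 for Manf, -0.52 for Ero1lb, -0.47 for Dnajc3, -0.44 for Ssr1 and -0.40 for Dnajb11. Adjusted p ran from 0.000118 for Derl1 to 0.0477 for Hyou1. The 24 h and 6 h arrays stood on different slides, and on each slide the row followed the oxygen level. A row effect that differed between the slides therefore cannot be told apart from these differences.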

How the results depend on the processing

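Under 27 alternatives 23 to 26 of the 36 genes fell at 24 h with other settings and 22 to 26 with 1 array left out, and 22 fell under every setting. Of the others, Ern1, P4hb, Sel1l and Edem1 missed the threshold in some settings, as their ranges of adjusted p show. The number that rose at 24 h was 1 (Eif2ak3) in place of 0 with the percentile over detected probes, quantile normalization, median centring, the authors' deposited table, the compared groups only and the replicate block over all arrays, and 0 to 1 with an array left out. With the block within each time no member's 24 h call changed, and with either block the genes named beside the difference changed, as did Sel1l (0.0395) and Edem2 (0.0509) over time in hyperoxia. The difference was below zero for 15 to 19 genes, for 14 to 20 with an array left out, and for 14 under every setting, and above zero for 0 to 1. Calls were lost in some settings for Hyou1, Herpud1 (passed in 18 of 26) and Pdia4 (24). At 6 h the counts were 0 throughout. Over time in hyperoxia the number higher was 4 with median centring (2 to 5 with an array left out), and the median -0.47 with quantile normalization and the deposited table (-0.40 to -0.32 with an array left out). In normoxia the number lower was 12 with quantile normalization and with the deposited table, and 4 with the compared groups only (5 to 7 with an array left out), and the median was -0.14 with both of the first (-0.05 to 0.02 with an array left out). Over time in normoxia 3 genes turned sign and were called: Hspa5 (-0.21 with quantile normalization and with the deposited table), Hsp90b1 (-0.22 with both) and Pdia6 (-0.20 with the median over its probes). The Pdia6 probe used gave 0.16 and its other probes -0.20 and -0.38, so its direction over time rests on the probe. For Hspa5 and Hsp90b1 the cause was not tested. Of 4752 single-gene results under alternatives 4550 kept direction and side of the threshold, 140 missed it, 57 newly passed and 5 turned. Each of the 36 genes was read from a probe well above background on all arrays, whereas 3 further probes, of Dnajb11 and Ern1, missed the filter and were not tested. With normexp, Derl3 kept its calls with values of -0.64 at 24 h and -0.55 for the difference.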
